A study of Homo sapiens with 9 samples.

Results

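The genes described here encode carriers that move amino acids across the plasma membrane or the membranes of organelles. They were taken as all symbols of the SLC1A, SLC3A, SLC7A, SLC36A, SLC38A and SLC43A series, and they were 40 of the 26475 symbols in the count table. Their mRNA was measured in cells of A375, a human BRAF-mutant melanoma line grown in medium with fetal bovine serum, treated for 24 h with the vehicle DMSO, with 5 µM TP-472 or with 10 µM TP-472, in 3 biological replicates per group. TP-472 blocks the bromodomains of BRD9 and BRD7, which are reader proteins of SWI/SNF chromatin remodelling complexes. All 9 libraries came from 1 cell line, so the replicates carry no difference between lines or patients, and no other BRD9/7 inhibitor or inactive analog was sequenced.

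Most amino acids cannot cross a membrane without a carrier, and melanoma cells in culture take up large amounts of glutamine, leucine and cystine. The SLC7 light chains exchange 1 amino acid for another and most of them reach the cell surface only when joined by a disulfide bridge to a heavy chain, SLC3A2 (also named CD98hc or 4F2hc) or SLC3A1. SLC1A and SLC38A carriers use the sodium gradient to concentrate amino acids inside the cell, SLC36A carriers use protons, and SLC43A carriers are facilitators. When amino acids run short, the kinase GCN2 raises translation of the transcription factor ATF4, which induces genes for amino acid uptake and synthesis, and the amino acids inside lysosomes are sensed by mTORC1 through the Rag GTPases.

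Total expected counts ran from 42483091 to 51298130 per library. Of the 40 genes, 26 had enough counts to be tested and 14 did not. Levels are given as CPM (counts scaled to a common library size). A gene was called when its fold change reached 1.5 and its p in the quasi-likelihood test of edgeR, adjusted by Benjamini and Hochberg over all 16417 genes tested, lay under 0.05. The libraries are bulk, so a change in the share of cells that carry an mRNA and a change in the amount per cell cannot be told apart. Melanocyte lineage markers were only partly present, with 3 of 8 at 1 CPM or more in every library: SOX10 lay at 363 to 426 CPM and MITF at 23.3 to 35.9 CPM, whereas TYR had no count in any library. Markers of keratinocytes, mostly KRT10, had sums of 49.4 to 56.7 CPM with DMSO, of 62.0 to 65.9 CPM with 5 µM and of 67.1 to 97.7 CPM with 10 µM, with 2 of 4 under 1 CPM in at least 1 library, and their part in the results was not tested. The endothelial markers summed to at most 2.67 CPM, and the epithelial and white blood cell markers stayed under 1 CPM. Replicate 1 of the 10 µM group stood apart from the other libraries. Its median absolute log2 deviation from the mean of the other libraries of its group, over all genes tested, was 0.405. This deviation was 0.0720 to 0.117 in the DMSO and 5 µM libraries. It was 0.233 and 0.245 in the other 10 µM libraries, where the mean compared with includes replicate 1. The counts of transporter genes called are also given without 10 µM replicate 1.

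At 10 µM TP-472, 5 of the 26 genes were called higher than in DMSO and 1 was called lower. The genes called higher were SLC7A5 and SLC3A2, which form the leucine exchanger LAT1/CD98hc, the alanine, serine and cysteine carrier SLC1A4, the facilitator SLC43A2 and the light chain SLC7A8. The gene called lower was SLC7A1, the main carrier of arginine and lysine. Over all genes tested, 8.57% were called higher and 10.5% lower in this comparison. By adjusted p alone, 7 of the transporter genes were higher, adding SLC36A1 and SLC38A7, and 3 were lower, adding SLC43A3 and SLC1A1, against 16.4% and 18.0% of all genes. The median log2 fold change over the 26 genes was 0.003, and that over all genes was 0.0107.

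At 5 µM no transporter gene was called by edgeR in either direction, against 2.14% of all genes called higher and 2.72% lower. DESeq2 and limma-voom also called 0, and 7 genes were higher and 4 lower at an unadjusted p under 0.05. The share of all genes at an unadjusted p under 0.05 was not counted, so such counts, here and below, have no background. SLC7A5 and SLC3A2 were higher by adjusted p alone, and both lay just under the 1.5-fold limit, while SLC43A3 was lower; over all genes, 4.40% were higher and 5.81% lower by that rule. Between 5 µM and 10 µM, SLC3A2 and SLC1A4 were called higher at 10 µM and no gene was called lower, against 1.42% and 2.59% of all genes; DESeq2 and limma-voom also called 0 lower, and 3 were lower at an unadjusted p under 0.05. Adjusted p alone gave the same 2 genes higher and none lower (2.87% and 5.53% of all genes), with 24 genes not past the threshold. The comparisons with DMSO share the DMSO libraries, and both comparisons of 10 µM share the 10 µM libraries.

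Without replicate 1 of the 10 µM group, 16745 genes passed the filter, 27 of the transporter genes among them. At 10 µM against DMSO, 6 were then called higher and 1 lower (8.17% and 11.0% of all genes): SLC36A1 joined the genes called higher, SLC43A3 was called lower, and SLC7A1 was not called. At 5 µM against DMSO, SLC43A2 was called higher and SLC38A3 lower (3.43% and 3.98% of all genes). The groups shared 1 estimate of the spread, so leaving out a 10 µM library also changed the p at 5 µM. For 10 µM against 5 µM, SLC1A4 and SLC7A8 were called higher and none lower (1.91% and 3.27% of all genes).

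**Figure D1:**
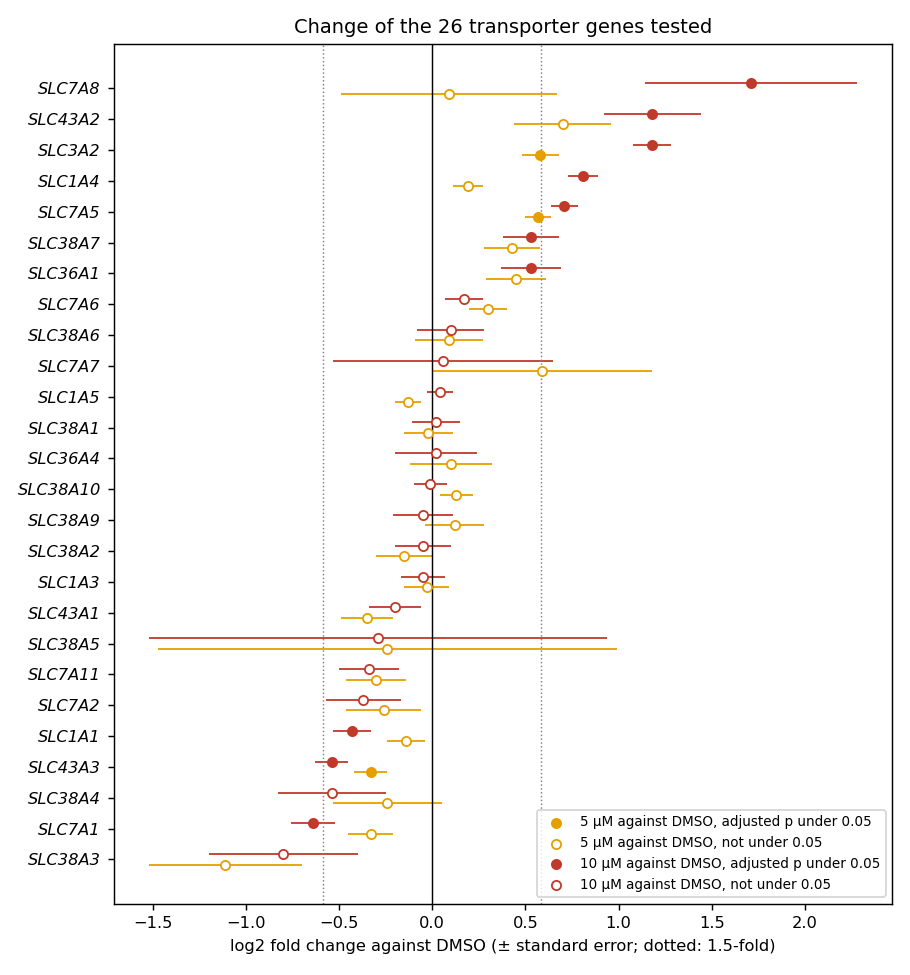
Log2 fold change against DMSO (x axis, ± standard error) of the 26 transporter genes tested (y axis), for 5 µM in orange and 10 µM in red, with filled points where the adjusted p was under 0.05 and dotted lines at a fold change of 1.5. The filled red points on the right run from SLC36A1 at 0.53 to SLC7A8 at 1.71, and those on the left from SLC1A1 at -0.43 to SLC7A1 at -0.64.

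The start regions of the leucine exchanger genes and of SLC1A4 are shown because these genes were the most abundant or most precisely measured of those called higher. RefSeq gives start windows (GRCh38.p14, 250 bases before to 50 after a start) for 31 of the 40 genes, in 53 windows, since some genes have several starts. Genes not tested here are among the 31. SLC7A11, SLC43A3, SLC7A2 and SLC38A3 are among the genes without a window, so their starts were not searched. For SLC3A2 and SLC1A4 the window with a match was chosen after the search: the other SLC3A2 windows, at chr11:62855859-62856158 and chr11:62880646-62880945, and the other SLC1A4 window, at chr2:64988229-64988528, held no match, and these include the windows at the 5′ ends of both genes in GENCODE 29. SLC7A5 has 1 window. Each is written 5′ to 3′ on the strand of the gene. Capitals mark matches, on either strand, to TGATGNAA, the core of the amino acid response element that ATF4 binds with a C/EBP protein, to TGACNNNGC, the core of the antioxidant response element, or to CACGTG, the E-box of the MYC and MiT/TFE families. The windows are chr11:62881449-62881748 (plus strand) for SLC3A2, chr16:87869458-87869757 (minus strand) for SLC7A5 and chr2:64989149-64989448 (plus strand) for SLC1A4.
SLC3A2: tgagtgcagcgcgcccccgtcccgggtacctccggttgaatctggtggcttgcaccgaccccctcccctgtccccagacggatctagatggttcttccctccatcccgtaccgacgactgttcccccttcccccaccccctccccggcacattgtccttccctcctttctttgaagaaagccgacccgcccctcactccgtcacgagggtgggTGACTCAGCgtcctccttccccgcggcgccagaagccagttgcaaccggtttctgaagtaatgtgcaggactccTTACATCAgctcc
SLC7A5: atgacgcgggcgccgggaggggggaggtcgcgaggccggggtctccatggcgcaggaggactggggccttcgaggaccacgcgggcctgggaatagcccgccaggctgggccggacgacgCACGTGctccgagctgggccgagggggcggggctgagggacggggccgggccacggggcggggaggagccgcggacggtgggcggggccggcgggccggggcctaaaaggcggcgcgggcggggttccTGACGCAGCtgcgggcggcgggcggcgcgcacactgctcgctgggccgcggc
SLC1A4: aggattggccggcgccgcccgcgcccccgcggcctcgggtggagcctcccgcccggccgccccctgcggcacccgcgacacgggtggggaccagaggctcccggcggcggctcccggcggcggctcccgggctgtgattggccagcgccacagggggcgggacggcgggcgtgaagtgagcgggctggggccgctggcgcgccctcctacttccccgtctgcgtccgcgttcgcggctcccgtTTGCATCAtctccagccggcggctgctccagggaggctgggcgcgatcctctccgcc

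The SLC3A2 window held TGACNNNGC from 37 bases before the start (-37) and TGATGNAA on the other strand from base 38 after it. In SLC7A5 the matches were CACGTG at -130 and TGACNNNGC at -2, with no TGATGNAA, and in SLC1A4 TGATGNAA lay at -7 on the other strand. Over all transporter genes with a window, tested or not, TGATGNAA was found for 6 of 31 (19.35%). The share was 4.46% of the 27305 symbols with a window and 2.95% of the 11784 symbols that were also tested here. Per window, TGATGNAA was found in 6 of 53 (11.3%), against 3.62% of all 35116 windows. The other 4 genes were SLC1A3, SLC1A5, SLC38A1 and SLC7A1, of which none was called higher at either dose. The matches of 3 of them are shown as 30 bases in the same notation, to set beside the genes called higher: SLC7A1 at chr13:29595663-29595692, SLC38A1 at chr12:46266502-46266531 and SLC1A5 at chr19:46784893-46784922, all on the minus strand.
SLC7A1: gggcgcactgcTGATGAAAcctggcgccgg
SLC38A1: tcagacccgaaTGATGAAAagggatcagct
SLC1A5: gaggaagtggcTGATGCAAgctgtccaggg

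TGACNNNGC was found for 7 of 31 genes (22.58%, against 16.06% of all symbols with a window and 19.07% of those tested) and CACGTG for 9 (29.03%, against 8.77% and 12.21%). Per window, the shares were 13.2% for TGACNNNGC, against 13.35% of all windows, and 16.98% for CACGTG, against 7.26%. Genes with several windows have more chances of a match. No pair of matches overlapped. The genes with CACGTG included SLC7A5, SLC7A8, SLC36A1 and SLC38A7, which were higher by adjusted p at 10 µM, and SLC1A5, SLC43A1, SLC7A7 and SLC38A5, which were not. A match is a stretch of letters in the reference sequence, and binding at these sites was not measured.

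Between genes, levels were compared per kilobase of exonic length (GENCODE 29). In DMSO, SLC7A5 was the highest at 129 ± 2.83 CPM per kb (SD, n = 3), followed by the glutamine and alanine carrier SLC38A2 at 111 ± 0.592 and the heavy chain SLC3A2 at 71.8 ± 1.61. SLC43A3, a carrier of the nucleobase adenine that carries the family name of the leucine facilitators, at 63.3 ± 1.59, and the glutamine carrier SLC1A5 at 62.4 ± 1.42 came next, and their libraries overlapped. SLC7A1 lay at 30.9 CPM per kb, SLC38A1 at 19.5 and SLC38A10 at 18.9. The levels per kb then fell from SLC1A1 (8.82), SLC7A6 (8.78), SLC1A4 (4.53), SLC38A9 (4.32), SLC7A11 (3.86) and SLC43A1 (3.46) to SLC1A3 (2.93), SLC36A4 (2.83), SLC38A7 (2.48), SLC36A1 (2.41) and SLC38A6 (2.27). SLC7A2 was at 1.33 CPM per kb, and the lowest genes tested were SLC38A3 (0.601), SLC38A4 (0.574), SLC43A2 (0.256), SLC7A7 (0.180), SLC7A8 (0.0941) and SLC38A5 (0.0504). Of the 25 pairs of neighbours in this order, 11 overlapped in their DMSO libraries and 14 did not. At 10 µM the 3 highest genes were SLC7A5 at 211 ± 15.8 CPM per kb, SLC3A2 at 162 ± 23.1 and SLC38A2 at 107 ± 25.9 (SD, n = 3), so SLC3A2 stood above SLC38A2 in the group means.

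**Figure D2:**
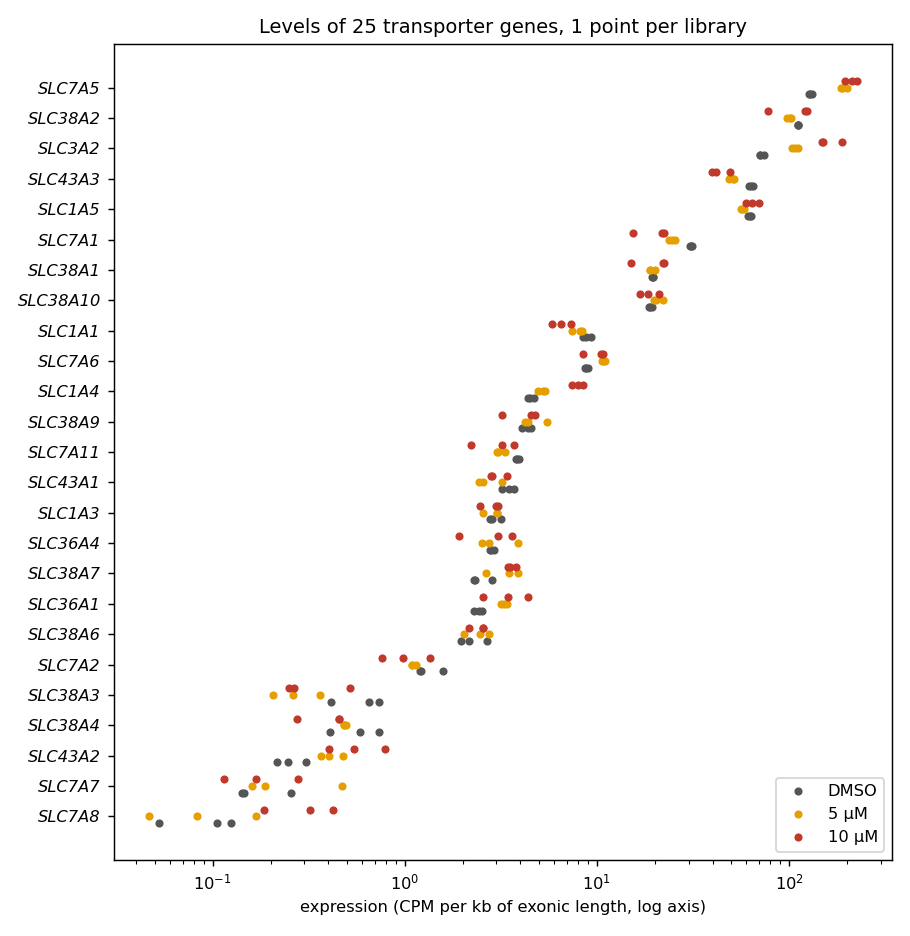
Expression in CPM per kb of exonic length (x axis, log scale) of 25 transporter genes (y axis, ordered by DMSO mean), with 1 point per library in grey for DMSO, orange for 5 µM and red for 10 µM; SLC38A5, at 0 in 1 library, is left out. The DMSO means run from 0.0941 for SLC7A8 to 129 for SLC7A5, and the red points of SLC7A5, SLC3A2 and SLC1A4 lie to the right of the grey ones.

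The heavy chain SLC3A2 (chr11:62856102-62888875, plus strand) chaperones the light chains to the plasma membrane and also binds integrins. Its level was 188, 188 and 196 CPM in the DMSO libraries, 277, 295 and 285 CPM at 5 µM, and 502, 393 and 397 CPM at 10 µM. No library of any group overlapped with those of another, so the 3 groups were ordered by dose. The log2 fold change was 0.58 ± 0.10 (SE) at 5 µM (adjusted p = 0.00431) and 1.18 ± 0.10 at 10 µM (adjusted p = 1.59e-05), and 10 µM exceeded 5 µM by 0.59 ± 0.10 (adjusted p = 0.00524). Without 10 µM replicate 1, which was the highest of its group, the difference between the doses was 0.47 with an adjusted p of 2.63e-07, under the 1.5-fold limit. The other heavy chain, SLC3A1, which pairs with SLC7A9 in kidney and gut, had 0 to 7.81 counts per library and was not tested.

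SLC7A5 (chr16:87830023-87869488, minus strand), or LAT1, brings leucine, isoleucine, phenylalanine, tryptophan and other large neutral amino acids into the cell in exchange for glutamine. It was measured at 581, 590.1 and 607 CPM in DMSO, 859, 916 and 868 CPM at 5 µM, and 892, 1036 and 975 CPM at 10 µM. All treated libraries lay above all DMSO libraries, while the doses overlapped with each other. Its log2 fold change was 0.57 ± 0.07 (SE) at 5 µM (adjusted p = 0.00095) and 0.71 ± 0.07 at 10 µM (adjusted p = 6.02e-05). Between the doses it was 0.14 ± 0.07 (adjusted p = 0.265), and 0.19 (adjusted p = 0.00128) without 10 µM replicate 1. Reads may be shared with the near-identical pseudogenes SLC7A5P1, at 8 to 84.3 counts, and SLC7A5P2, at 21.3 to 88.7 counts per library, which were small beside at least 25664 counts of SLC7A5.

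The light chain SLC7A8, or LAT2, is a second exchanger of neutral amino acids, common in kidney. Its level was low, at 0.584, 0.247 and 0.496 CPM in DMSO, 0.219, 0.794 and 0.390 CPM at 5 µM, and 0.868, 1.98 and 1.51 CPM at 10 µM, from 10 to 103 counts per library. The 10 µM libraries lay above all others, and the DMSO and 5 µM libraries overlapped. In edgeR the 10 µM group was higher by 1.71 ± 0.57 (SE) on the log2 scale, with an adjusted p of 0.0426. This call did not hold without any 1 of the 3 DMSO replicates (adjusted p = 0.0759, 0.148 and 0.104), 5 µM replicate 3 (0.0611), 10 µM replicate 2 (0.12) or 10 µM replicate 3 (0.0753), and it had an adjusted p of 0.00826 without 10 µM replicate 1.

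SLC7A11, or xCT, takes up cystine for glutathione synthesis in exchange for glutamate. Its level was 36.5, 38.1 and 37.0 CPM in DMSO, 29.5, 29.3 and 32.1 CPM at 5 µM, and 21.4, 30.8 and 35.9 CPM at 10 µM. Every treated library lay under the DMSO libraries, the spread at 10 µM was wide, and no comparison passed the threshold, with log2 fold changes of -0.30 ± 0.16 (SE, adjusted p = 0.285) at 5 µM and -0.34 ± 0.16 (adjusted p = 0.12) at 10 µM. Without 10 µM replicate 1, where SLC7A11 was lowest, the adjusted p was 0.00312 at 5 µM and 0.0962 at 10 µM. SLC7A6, which exchanges arginine for neutral amino acids with sodium, had 55.8 CPM in DMSO. On the opposite strand, SLC7A6OS and AC020978.9 together overlap 58.9% of its exonic length. SLC7A7, of the same y+L system, had 0.486 CPM in DMSO, and neither gene passed the threshold at either dose in the fit of all libraries. Leaving out 10 µM replicate 1, SLC7A6 was higher by 0.30 (adjusted p = 8.52e-05) at 5 µM and 0.28 (adjusted p = 0.000268) at 10 µM, where its log2 fold change with all libraries was 0.17.

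The ratio of heavy to light chain mRNA was computed per kb as SLC3A2 over the sum of the light chains that pair with it, SLC7A5, SLC7A6, SLC7A7, SLC7A8, SLC7A10 and SLC7A11. The ratio was 0.508, 0.500 and 0.507 in DMSO, 0.517, 0.520 and 0.527 at 5 µM, and 0.920, 0.617 and 0.659 at 10 µM. Heavy and light chain mRNA thus stood at nearly the same proportion in DMSO and 5 µM, although both were higher at 5 µM. Every 5 µM ratio lay slightly above the DMSO ratios, and every 10 µM library had more heavy chain per light chain. The 0.920 came from 10 µM replicate 1. There SLC3A2 lay at 0.34 and SLC7A5 at -0.17 from the mean of the other 10 µM libraries on the log2 scale. SLC7A5 made up 90.8% to 94.7% of the summed light chains in every library. The exact permutation test on the mean ratio (two-sided, n = 3 per group) gave 0.1 for each pair of groups, the smallest p that 3 against 3 libraries allow.

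**Figure D3:**
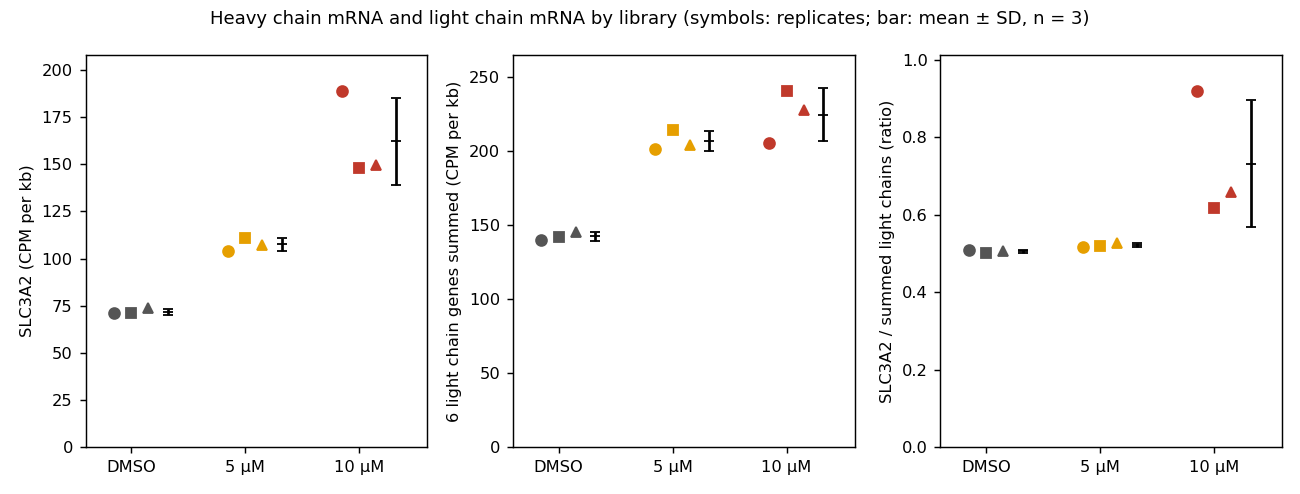
SLC3A2 (left, CPM per kb), the 6 light chain genes summed (middle, CPM per kb) and the ratio of heavy to light chain mRNA (right), by treatment (x axis), with 1 symbol per library and bars for the mean ± SD (n = 3). SLC3A2 is ordered by dose with no overlap, and the ratio is 0.500 to 0.527 in DMSO and 5 µM and 0.617 to 0.920 at 10 µM.

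Among the carriers for alanine, serine and cysteine, SLC1A4 (chr2:64988477-65023865, plus strand), or ASCT1, was measured at 21.05, 20.5 and 22.2 CPM in DMSO, 25.1, 24.7 and 23.1 CPM at 5 µM, and 37.4, 39.9 and 34.7 CPM at 10 µM. The groups did not overlap, and the step from 5 µM to 10 µM was larger than that from DMSO to 5 µM. SLC1A4 had a log2 fold change of 0.81 ± 0.08 (SE) at 10 µM (adjusted p = 7.23e-05), and 10 µM exceeded 5 µM by 0.62 ± 0.08 (adjusted p = 0.00208), whereas that at 5 µM was 0.19 ± 0.08 (adjusted p = 0.189). Replicate 1 of the 10 µM group lay 0.01 from the mean of the other replicates on the log2 scale, and the fold change at 10 µM was 0.81 without it as well. The difference between the doses was 0.58 without 5 µM replicate 3 and 0.57 without 10 µM replicate 2, under the 1.5-fold limit with adjusted p of 0.0167 and 0.00688.

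SLC1A5, or ASCT2, is the glutamine carrier of the same pair. Its level was 209.9, 203 and 212 CPM in DMSO, 186, 194 and 190.4 CPM at 5 µM, and 232, 214 and 198 CPM at 10 µM. The 10 µM libraries overlapped with DMSO, and the log2 fold changes were -0.13 ± 0.07 (SE, adjusted p = 0.325) at 5 µM and 0.04 ± 0.07 (adjusted p = 0.677) at 10 µM. With 10 µM replicate 1 left out these were -0.13 (adjusted p = 0.0147) and -0.02 (adjusted p = 0.772). A gene on the opposite strand covers 23.4% of its exonic length.

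SLC7A1 (chr13:29509410-29595688, minus strand), or CAT1, carries arginine, lysine and ornithine and needs no heavy chain. It was measured at 228, 229 and 225 CPM in DMSO, 188, 181 and 175 CPM at 5 µM, and 114, 164 and 159.6 CPM at 10 µM. The groups did not overlap and were ordered by dose, with 10 µM replicate 1 far under the others. Against DMSO, SLC7A1 had log2 fold changes of -0.33 ± 0.12 (SE, adjusted p = 0.126) at 5 µM and -0.64 ± 0.12 (adjusted p = 0.00295) at 10 µM. Without 10 µM replicate 1 the value at 10 µM was -0.49, with an adjusted p of 6.49e-08 but a fold change under the limit, and that at 5 µM had an adjusted p of 3.61e-06. SLC7A2, the cationic carrier of liver and macrophages, had 10.5 CPM in DMSO and did not pass the threshold, and SLC7A3 (0 to 4 counts per library), SLC7A4 (0 to 10) and SLC7A14 (0 to 7) were not tested.

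The 3 SLC43A genes did not move together. SLC43A2 (chr17:1569267-1628886, minus strand), or LAT4, a facilitator for branched-chain amino acids and phenylalanine, was measured at 2.15, 1.89 and 2.67 CPM in DMSO, 4.18, 3.20 and 3.53 CPM at 5 µM, and 6.94, 4.75 and 3.53 CPM at 10 µM. Every treated library lay above the DMSO libraries, and the doses overlapped. Against DMSO, SLC43A2 had log2 fold changes of 1.18 ± 0.26 (SE, adjusted p = 0.00684) at 10 µM, or 0.89 (adjusted p = 0.00484) without 10 µM replicate 1, and 0.70 ± 0.26 (adjusted p = 0.131) at 5 µM.

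SLC43A3 (chr11:57406954-57427580, minus strand) was measured at 184, 178 and 187 CPM in DMSO, 148, 149 and 141 CPM at 5 µM, and 142, 115 and 120.3 CPM at 10 µM. All treated libraries lay under the DMSO libraries. The log2 fold change was -0.33 ± 0.09 (SE, adjusted p = 0.0397) at 5 µM and -0.54 ± 0.09 (adjusted p = 0.00107) at 10 µM, and without 10 µM replicate 1 the latter was -0.64. At 5 µM the adjusted p was 0.108 to 0.156 when any 1 of the DMSO or 5 µM libraries was left out. It was 9.03e-06 without 10 µM replicate 1, with a log2 fold change of -0.33, and this value ran from -0.35 to -0.30 with 1 library left out. A gene on the same strand overlaps 10.5% of its exonic length, so part of its counts could not be assigned with certainty. SLC43A1, or LAT3, had 9.37 CPM in DMSO and did not pass the threshold, except at 5 µM with 10 µM replicate 1 left out (-0.35, adjusted p = 0.0431).

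**Figure D4:**
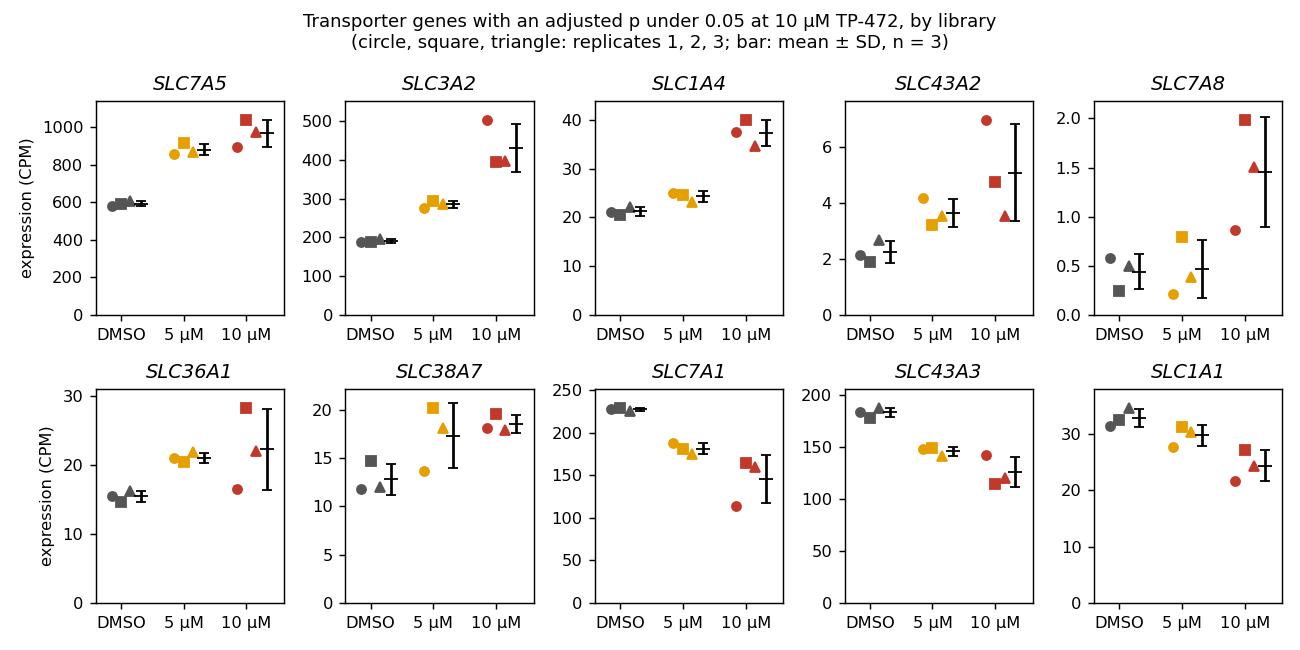
Expression in CPM (y axis, from 0) of the 10 transporter genes with an adjusted p under 0.05 at 10 µM TP-472, by treatment (x axis), with circles, squares and triangles for replicates 1, 2 and 3 and bars for the mean ± SD (n = 3). SLC3A2 and SLC1A4 are higher, and SLC7A1 is lower, at each dose step with no overlap between groups, and 10 µM replicate 1 is the lowest library of SLC7A1.

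Of the sodium-coupled neutral carriers, 9 of 11 SLC38A genes were tested, and SLC38A7 alone was past an adjusted p of 0.05 at 10 µM. SLC38A2, or SNAT2, which takes up alanine, serine and glutamine and is known to be induced when amino acids are withdrawn, was measured at 556, 554 and 559.9 CPM in DMSO, 513, 487 and 505 CPM at 5 µM, and 388, 607 and 619 CPM at 10 µM. The 5 µM libraries lay under the DMSO libraries, and the 10 µM libraries lay on both sides of them. The log2 fold change was -0.05 ± 0.15 (SE, adjusted p = 0.833) at 10 µM and -0.15 ± 0.15 (adjusted p = 0.612) at 5 µM. Leaving out 10 µM replicate 1, these were 0.14 (adjusted p = 0.00215) and -0.15 (adjusted p = 0.000681), and 10 µM exceeded 5 µM by 0.29 (adjusted p = 7.65e-06), so the direction at 10 µM rested on that library.

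SLC38A9 is the arginine sensor of mTORC1 on the lysosome and lets leucine out of it. Its level was 15.3, 14.2 and 15.8 CPM in DMSO, 19.1, 15.4 and 14.7 CPM at 5 µM, and 16.7, 15.8 and 11.2 CPM at 10 µM. The groups overlapped, and the log2 fold change at 10 µM was -0.05 ± 0.16 (SE, adjusted p = 0.837). SLC38A7, which exports glutamine from lysosomes, had 11.8, 14.7 and 11.99 CPM in DMSO, 13.6, 20.2 and 18.2 CPM at 5 µM, and 18.2, 19.6 and 17.9 CPM at 10 µM. Its log2 fold change at 10 µM was 0.53 ± 0.15 (SE, adjusted p = 0.0201), with adjusted p of 0.0832 and 0.0834 without DMSO replicate 1 or 3 and 0.0551 without 10 µM replicate 2.

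SLC38A3, a glutamine carrier of liver and brain, was measured at 2.19, 1.23 and 1.94 CPM in DMSO, 0.613, 1.08 and 0.780 CPM at 5 µM, and 0.744, 0.788 and 1.55 CPM at 10 µM. The 5 µM libraries lay under the DMSO libraries, with a log2 fold change of -1.11 ± 0.41 (SE, adjusted p = 0.123), and with an adjusted p of 0.0333 without 10 µM replicate 1. The others tested, by their DMSO means, were the glutamine carrier SLC38A1 (182 CPM), SLC38A10 (87.0 CPM), SLC38A6 (4.56 CPM), SLC38A4 (2.29 CPM) and SLC38A5 (0.159 CPM). Their log2 fold changes at 10 µM ran from -0.54 for SLC38A4 to 0.10 for SLC38A6, and none passed the threshold. SLC38A1 was higher by 0.18 without 10 µM replicate 1 (adjusted p = 0.00128). SLC38A8 and SLC38A11 had 0 counts in all 9 libraries, where the limit that a count of 0 allows, 3 counts, is 0.0577 to 0.0709 CPM for counting error only.

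Of the proton-coupled carriers, SLC36A1 (PAT1), which exports small amino acids from lysosomes and takes part in mTORC1 signalling, was measured at 15.6, 14.7 and 16.2 CPM in DMSO, 21.0, 20.4 and 21.9 CPM at 5 µM, and 16.5, 28.3 and 22.1 CPM at 10 µM. All treated libraries lay above the DMSO libraries, and the lowest of them was 10 µM replicate 1. The log2 fold change was 0.45 ± 0.16 (SE, adjusted p = 0.121) at 5 µM and 0.53 ± 0.16 (adjusted p = 0.0317) at 10 µM. Without 10 µM replicate 1 the values were 0.45 (adjusted p = 0.00124) and 0.70 (adjusted p = 2.61e-05), and without any 1 of the other 8 libraries the adjusted p at 10 µM was 0.0526 to 0.112. SLC36A4 had 17.8 CPM in DMSO and did not pass the threshold, and SLC36A2 (1 to 10 counts per library) and SLC36A3 (0 to 1) were not tested. SLC36A1, SLC36A2 and SLC36A3 lie side by side on chromosome 5.

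Of the 5 glutamate carriers, 2 were tested. SLC1A1, or EAAT3, which takes up glutamate, aspartate and cysteine, was measured at 31.5, 32.5 and 34.5 CPM in DMSO, 27.7, 31.1 and 30.4 CPM at 5 µM, and 21.7, 27.1 and 24.3 CPM at 10 µM. Every treated library lay under the DMSO libraries, and the log2 fold change at 10 µM was -0.43 ± 0.10 (SE, adjusted p = 0.00792), or -0.36 (adjusted p = 0.00157) without 10 µM replicate 1. SLC1A3, the glial carrier, had 12.2 CPM in DMSO and did not pass the threshold, and SLC1A2 (0 to 24 counts per library), SLC1A6 (0 to 1) and SLC1A7 (0 to 19) were not tested. Of the light chains, SLC7A9 (0 to 7 counts), SLC7A10 (0 to 2.01) and SLC7A13 (0 in all libraries) were not tested.

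The deviation of 10 µM replicate 1 touched many of these genes. Against the mean of the other 10 µM libraries, it was above 0 in 10 and below 0 in 16 of the 26 genes tested, from -0.92 for SLC7A8 to 0.75 for SLC43A2 on the log2 scale among the 25 genes with counts in every library. Across 15273 genes tested with a length, the Pearson correlation of its deviation with log10 exonic length was -0.34. It was 0.23 in both other 10 µM libraries and -0.06 to 0.03 in the DMSO and 5 µM libraries. Within a group these deviations sum to 0 for each gene, so the values of the other 10 µM libraries are not independent of that of replicate 1. Genes are not independent replicates either. Over the 26 transporter genes the correlation for 10 µM replicate 1 was -0.3. Counts assigned to ribosomal RNA genes were 8.2% of this library, 14.3% and 19.9% of the other 10 µM libraries, 10.6% to 16.6% at 5 µM and 8.79% to 10.9% in DMSO. Their part in the differences between replicates was not tested.

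**Figure D5:**
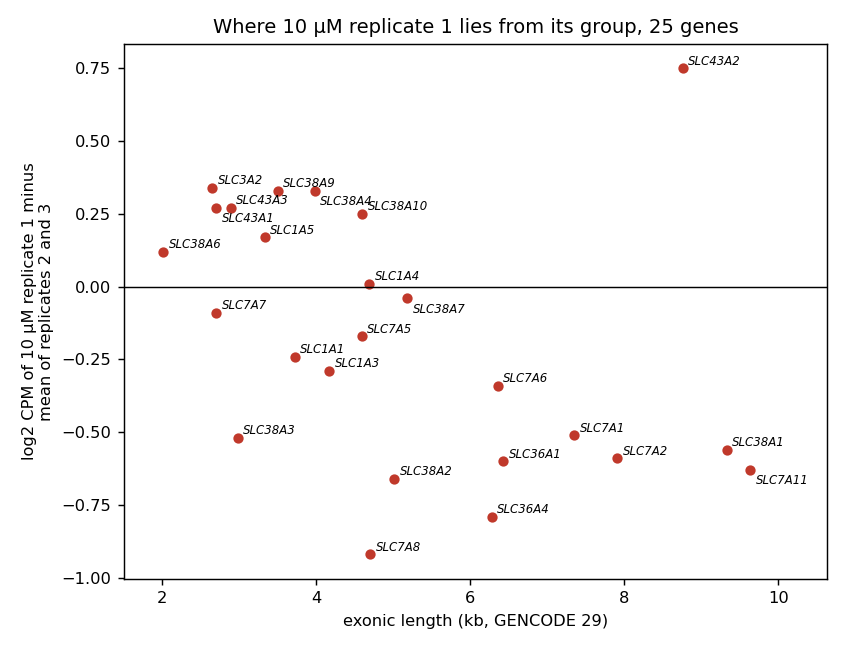
Log2 CPM of 10 µM replicate 1 minus the mean of 10 µM replicates 2 and 3 (y axis) against exonic length in kb (x axis) for 25 transporter genes, 1 point per gene; SLC38A5, at 0 in this library, is left out. SLC3A2 (2.65 kb) lies 0.34 above the other replicates, SLC7A1 (7.35 kb) lies at -0.51, and SLC43A2 (8.76 kb) lies apart from the other long genes at 0.75.

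Genes around these carriers were counted by the same rule, so the percentages of all genes called, given above, are the background for them too. Counts at an unadjusted p have no such background. In the amino acid response list, which holds the GCN2 gene EIF2AK4, ATF4 and genes known as targets of ATF4 or its partners, 9 of 23 genes were called higher and 2 lower at 10 µM against DMSO, 2 higher and 2 lower at 5 µM, and 9 higher and 0 lower at 10 µM against 5 µM, where DESeq2 and limma-voom also called 0 lower and 2 were lower at an unadjusted p under 0.05. The median log2 fold change of the list at 10 µM was 0.458, and 0.314 without 10 µM replicate 1, where 9 were called higher and 3 lower. At 10 µM against 5 µM, 6 were called higher without that library: ATF4 (0.47), CEBPB (0.47) and CEBPG (0.58) fell under the 1.5-fold limit. SESN2, a leucine sensor that restrains mTORC1, was at 14.9 ± 0.717 CPM in DMSO, 40.5 ± 3.02 at 5 µM and 65.5 ± 6.95 at 10 µM (SD, n = 3), a log2 fold change of 2.14 ± 0.10 (SE, adjusted p = 6.21e-07) at 10 µM. DDIT3, the stress transcription factor CHOP, was at 9.67 ± 0.845, 16.1 ± 0.775 and 76.2 ± 22.9 CPM, and CHAC1, which degrades glutathione, at 3.17 ± 0.626, 4.69 ± 0.774 and 28.5 ± 7.02 CPM. Both were called higher at 10 µM against 5 µM, by 2.24 ± 0.18 (SE, adjusted p = 0.000128) and 2.60 ± 0.21 (adjusted p = 0.000128) on the log2 scale.

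In the list of amino acid sensing at the lysosome, 7 of 29 genes tested were called higher and 0 lower at 10 µM against DMSO, 2 and 0 at 5 µM, and 2 and 0 at 10 µM against 5 µM. DESeq2 and limma-voom also called 0 lower in each, and at an unadjusted p under 0.05 edgeR had 5, 1 and 3 lower. With 10 µM replicate 1 left out the count at 10 µM was 4 higher and 1 lower, as RRAGC, LAMTOR1 and FLCN fell under the 1.5-fold limit and TFEB was called lower. SESN2 belongs to this list too, and SESN1 and SESN2 were the only genes of it called at 5 µM. What raised them was not tested. SESN1, of the same family of sensors, was at 14.3 ± 0.755 CPM in DMSO, 40.2 ± 2.68 at 5 µM and 42.6 ± 2.14 at 10 µM (SD, n = 3), and the Rag GTPase RRAGC at 38.6 ± 1.59, 43.7 ± 1.75 and 59.0 ± 5.70 CPM. SESN1 was called higher at both doses and RRAGC at 10 µM, by 0.61 ± 0.09 (SE, adjusted p = 0.000545) on the log2 scale, or 0.53 without 10 µM replicate 1.

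Among amino acid carriers of other families, 3 of 21 tested were called higher and 1 lower at 10 µM against DMSO, 1 and 0 at 5 µM, and none in either direction between the doses, where edgeR, DESeq2 and limma-voom each called 0 and 3 were higher and 2 lower at an unadjusted p under 0.05. None was called lower at 5 µM by these tools, and 2 were lower at an unadjusted p under 0.05. The gene called at 5 µM was SLC6A17, named after its values were seen, at a low level of 0.414 CPM in DMSO. Its log2 fold change was 2.12 ± 0.40 (SE, adjusted p = 0.0092) at 5 µM and 1.54 ± 0.40 (adjusted p = 0.0144) at 10 µM, where it was called too. With 1 library left out these adjusted p reached 0.0529 and 0.0627. CTNS, the lysosomal cystine exporter, was higher at 10 µM by 0.80 ± 0.11 (SE, adjusted p = 0.000457), and SLC25A38, the mitochondrial glycine carrier, by 0.67 ± 0.10 (adjusted p = 0.000908). SLC25A44, the mitochondrial carrier of branched-chain amino acids, had a log2 fold change of 0.53 ± 0.08 (adjusted p = 0.0011), under the 1.5-fold limit. Leaving out 10 µM replicate 1, SLC25A38 was at 0.56, under the limit, and SLC25A44 at 0.59, over it, so that SLC25A44 took the place of SLC25A38 among the 3 called higher. The gene called lower was the taurine carrier SLC6A6, at 91.0 ± 2.05 CPM in DMSO and 50.3 ± 10.7 CPM at 10 µM (SD, n = 3), chosen after its values were seen.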

How the data were processed

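RNA from A375 cells was sequenced as strand-specific libraries; the labels name oligo-dT selection in the protocol and ribosomal RNA depletion in the design. The authors deposited expected counts per gene symbol, not scaled to library size, with 1 column per library. The submitters' processing notes name RSEM 1.2.15, Bowtie2 2.1.0 and hg38; annotation, filters and strand setting: not given in the sources used here.

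Expected counts were rounded and tested in 1 fit over 9 libraries and 3 groups with edgeR 4.0.16 (R 4.3.3): TMM factors, filterByExpr at default settings (16417 of 26475 symbols kept), quasi-likelihood F test, Benjamini-Hochberg adjustment. Calls required both 1.5-fold change and adjusted p under 0.05. A standard error is the size of the log2 fold change over the square root of F. Total counts were 42483091 to 51298130 per library, and the floor of 3 counts was 0.0577 to 0.0709 CPM, for counting error only. The 40 genes, the related lists and the promoter motifs were chosen with earlier results of these data known. All genes called in any comparison were named with every library, besides 7 preset genes; other genes were given 1 level, and the 3 with the smallest p represented each related list. Exonic lengths and positions came from GENCODE 29 (GRCh38), matched for 40 of 40 symbols, and start windows from RefSeq (GRCh38.p14). Scripts were tested on simulated data: of 200 genes changed 1.5-fold, 34 were recovered at 5 µM and 43 at 10 µM against DMSO (16103 genes), and of 200 changed 2-fold, 130 and 126 (16101 genes). Recovery required a call, so genes changed by exactly 1.5-fold were also lost when their estimate fell under the fold limit. Alternatives covered scaling, filters, tests, thresholds and libraries left out.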

Additional observations from a re-analysis of the deposited data

How the results depend on the processing

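No transporter gene called in a comparison changed direction under the alternatives planned; SLC38A2 at 10 µM, which was not called, went from -0.05 to 0.14 on the log2 scale without 10 µM replicate 1. At 5 µM against DMSO, where none was called, 1 gene was called higher with upper-quartile factors, with at least 1 CPM required in 3 libraries or with only the groups compared in the fit, and 2 with no limit on the fold change; 1 was called lower with only the groups compared or with no fold limit. With 1 library left out, 0 to 2 were called higher and 0 to 1 lower. At 10 µM against DMSO, a 2-fold limit gave 3 higher and 0 lower in place of 5 and 1, no fold limit gave 3 lower, and leaving out 1 library gave 4 to 6 higher and 1 to 2 lower. At 10 µM against 5 µM, 2 genes were called higher; this became 1 with no filter on low counts or with limma-voom, 3 with DESeq2, 0 with a 2-fold limit and 1 to 2 with 1 library left out. With no fold limit and without 10 µM replicate 1, an alternative chosen after seeing the data, 6 were higher and 7 lower at 5 µM, 10 and 3 at 10 µM, and 6 and 3 between the doses. The share of all genes was counted only for the main rule, for no fold limit and without 10 µM replicate 1, as given above. It was not counted under the other alternatives, the combined one included, so their counts cannot be read as a result about the transporter genes. The 3 groups shared 1 estimate of the spread, so an adjusted p at 5 µM also depends on the 10 µM libraries. SLC7A1 at 5 µM had a log2 fold change of -0.33 with all libraries and without 10 µM replicate 1. Its adjusted p was 0.126 and 3.61e-06, and 2.01e-06 with only the groups compared. The cause of the changes between alternatives was not tested further. With the replicate block, SLC7A8 at 10 µM had a log2 fold change of 1.56 (adjusted p = 0.0898) and 4 genes were called higher. Libraries with the same number did not deviate together (correlations -0.0493 to 0.0322 over 9 pairs), and a library correlated best with its own number in 9 of 18 comparisons. At counts as low as those of SLC7A8, SLC7A7 and SLC38A5, depth limits what could be detected.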

Other observations

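Summed per role, the level per kilobase of the glutamate carriers was 11.8 ± 0.261 CPM per kb in DMSO, 10.9 ± 0.782 at 5 µM and 9.41 ± 0.948 at 10 µM (SD, n = 3). The cationic carriers summed to 32.3 ± 0.447, 25.8 ± 0.840 and 20.9 ± 4.04 CPM per kb, and the 3 SLC43A genes to 67.0 ± 1.40, 53.6 ± 1.10 and 47.0 ± 5.52. The sodium-coupled neutral carriers summed to 159.9 ± 1.05 CPM per kb in DMSO, 151 ± 1.43 at 5 µM and 157 ± 27.6 at 10 µM, where the spread between libraries was larger than the differences between group means. These sums follow their most abundant members and were not tested.

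The genes of both bromodomain proteins that TP-472 binds were measured as well. BRD9 was at 37.6 ± 0.967 CPM in DMSO, 41.6 ± 4.46 at 5 µM and 45.4 ± 5.56 at 10 µM, and BRD7 at 88.1 ± 0.374, 83.6 ± 1.25 and 77.0 ± 8.93 CPM (SD, n = 3). An inhibitor acts on the protein, so these mRNA levels do not check the treatment.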
